A study of Homo sapiens with 6 samples.

Results

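The enzymes described here attach ubiquitin to proteins or take it off again. They were chosen by gene symbol: probe sets with a single symbol that begins with UBE2, UBE3, UBE4, UCHL or OTU, or with USP and a digit, with UBE2C left out. The rule found 43 probe sets for 42 genes, of 8746 probe sets and 7713 genes with a single symbol on the array. Messenger RNA was measured in A549, an established human line of lung adenocarcinoma, a non-small cell lung cancer. The 3 control cultures spent 1 hour in regular growth medium, and the 3 cisplatin cultures were exposed for that hour to cisplatin at 50 µM, which forms platinum crosslinks in DNA. All cultures were then washed and kept in drug-free medium for 10 hours, and each group came from 3 independent experiments. A549 is a single tumour line and served as its own untreated control.

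Ubiquitin is activated by an E1 enzyme, passed to an E2 conjugating enzyme (the UBE2 genes) and transferred to a target protein with the help of an E3 ligase. A chain of ubiquitins can send the target to the proteasome, while single ubiquitins and K63-linked chains act as signals, among others in the tolerance of DNA lesions. Deubiquitinases of the USP, UCH and OTU families reverse these steps, and several of them act on PCNA, FANCD2, histone H2A or the p53 regulator MDM2, all proteins of the answer to DNA damage.

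Each probe set has a linear intensity value, and fold changes were taken on log2(intensity + 11.8) by limma, an array model that shares variance information across probe sets. Of the 43 probe sets 41, standing for 40 genes, were bright enough to be tested. Those of OTUD4, an OTU deubiquitinase, and USP9Y lay below the brightness filter. OTUD4 had intensities of 4.34, 14.5 and 8.57 in control and 11.2, 10.7 and 8.22 in cisplatin cells, always in the order of arrays 1 to 3. USP2, USP20 and USP29 passed the filter by the smallest margin, with mean log2 intensities of 5.42, 5.50 and 5.56 against a limit of 5.15. On the leading principal component, with 39.9% of the variance, control 1 and cisplatin 2 lay away from the remaining 4 arrays. RNA integrity, read as the 3′/5′ signal ratio of ACTB, was 2.20 on control 1 and 3.67 on cisplatin 1. It was 2.67 on cisplatin 2 and 2.945 to 2.977 on the remaining arrays. The GAPDH ratio was also lowest on control 1 (1.84) and cisplatin 2 (2.07), with 2.134 to 2.365 on the rest. Cisplatin 2 had the highest median intensity, 67.2, against 57.2 to 59.7 elsewhere. Of the A549 markers 9 were measured and 0 were called, with KRT18 bright (5247 to 6165) and EPCAM and CDH1 dim (29.9 to 36.4 and 26.1 to 46.1). The 10 measured markers of blood, endothelial and stromal cells summed to intensities of 306 to 390.1 in control and 284 to 398 in cisplatin arrays. Of these 10, 5 lay below the brightness filter and could not be called, and 0 of the other 5 were called. In such bulk cultures fewer cells of a kind and less RNA per cell cannot be told apart.

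The comparison of cisplatin with control cells asked which of these enzymes differ in messenger RNA 10 hours after the exposure. None of the 41 tested probe sets passed an adjusted p of 0.05 in limma, where 0.290% of all 6559 tested probe sets did (0.213% higher and 0.0762% lower). Before adjustment 2 of the 41 had a p under 0.05, UBE2S and USP2, against 5.03% of all tested probe sets. The median log2 fold of the 40 genes was 0.02, with 22 higher and 18 lower. The median of all tested probe sets was 0.04, with 3968 higher and 2591 lower. The middle of the absolute log2 folds lay at 0.09 for the 40 genes and 0.11 for all tested probe sets. The distribution of log2 folds shows the enzymes inside the range of the rest of the array.

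**Figure D1:**
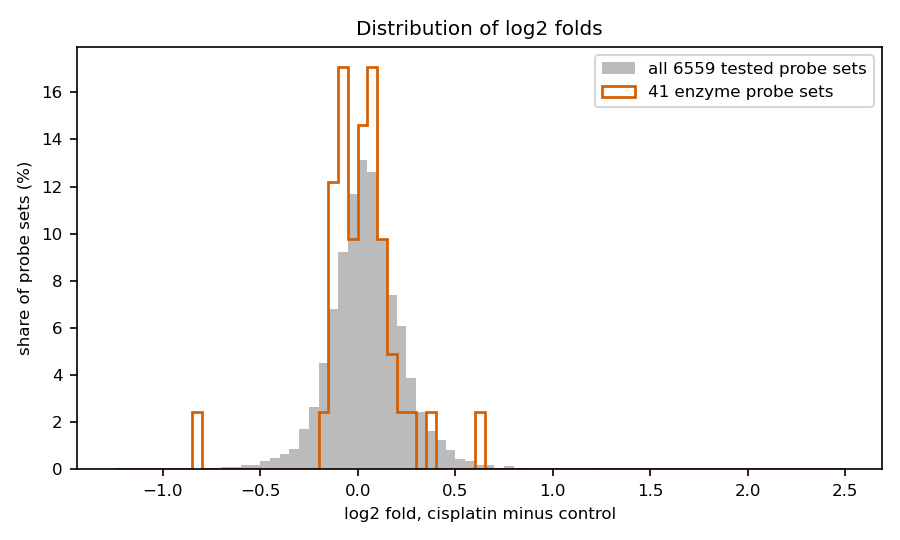
Share of probe sets (vertical axis, percent) by log2 fold of cisplatin over control (horizontal axis, bins 0.05 wide), in grey for all 6559 tested probe sets and as an orange line for the 41 enzyme probe sets. The enzymes run from -0.82 (UBE2S) to 0.62 (USP2) around a median of 0.03 over probe sets.

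How narrowly these values bound a difference can be read from the 95% interval of each log2 fold, which is unadjusted and covers only the spread between arrays. Folds and intervals are of intensity plus 11.8, which draws those of dim genes towards 0. Without the offset the log2 fold of USP2 went from 0.62 to 0.89, USP20 from 0.15 to 0.19 and USP29 from -0.11 to -0.18. For such dim genes the interval does not bound the ratio of the intensities themselves. For 38 of the 40 genes the interval lay inside a 2-fold change in either direction, and UBE2S and USP2 were the exceptions. It lay inside a 1.5-fold change for 32 of the 40 (80.0%, against 66.5% of all tested probe sets). The other 8 were UBE2S, UBE2B, USP2, USP4, USP5, USP8, USP29 and OTUD7B. The standard error of the log2 fold ran from 0.06 for UCHL1 to 0.26 for USP2, USP4 and USP29, so single genes were measured with unequal precision. A p that misses the threshold does not show that a gene was the same in both groups.

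**Figure D2:**
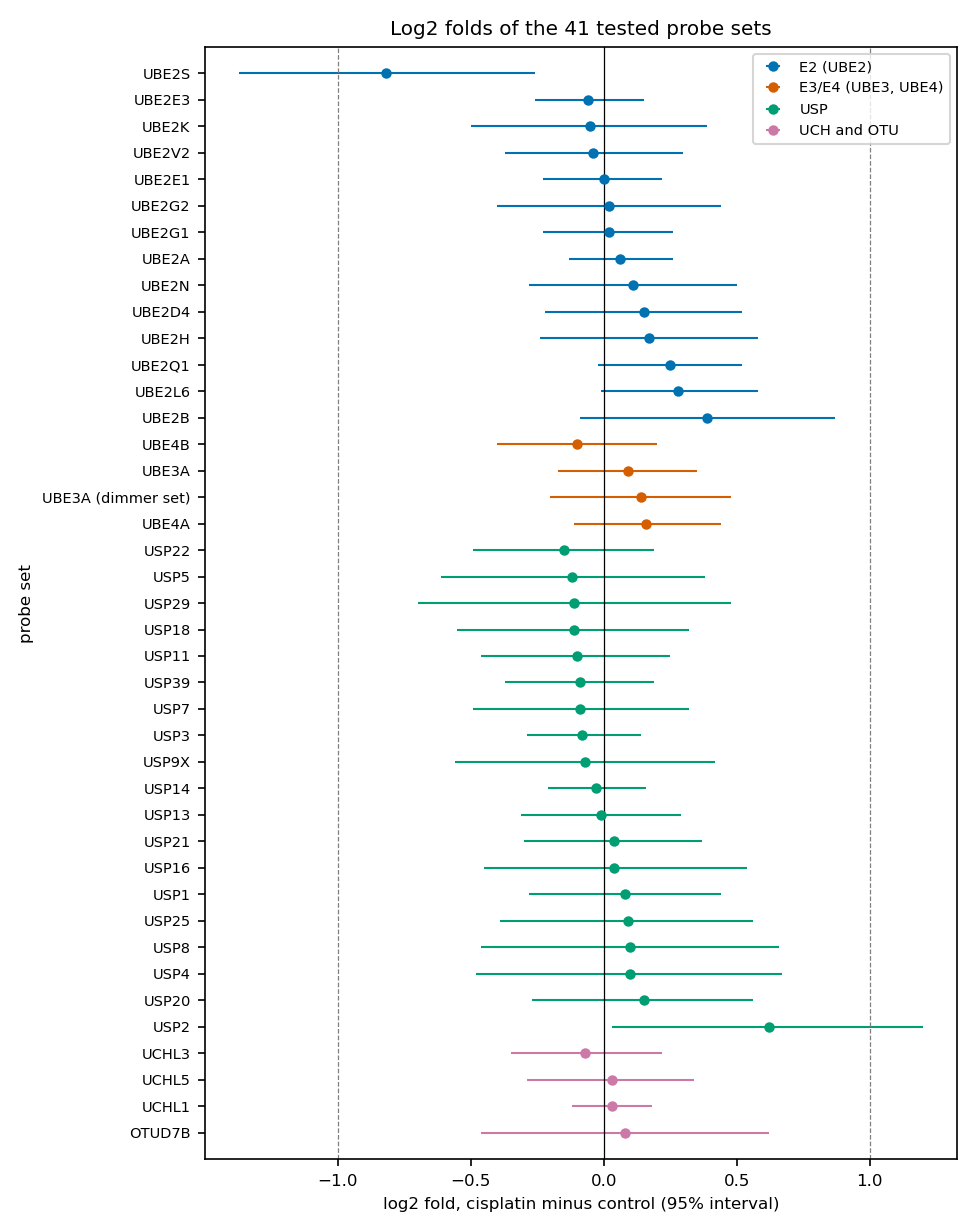
Log2 fold of cisplatin over control (points) with its unadjusted 95% interval (bars) for the 41 tested probe sets, grouped and coloured by family, with dashed lines at a 2-fold change in either direction. The intervals of UBE2S (-1.37 to -0.26) and USP2 (0.03 to 1.20) exclude 0 and reach beyond 2-fold, and all others include 0.

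UBE2S, the E2 with which the anaphase-promoting complex lengthens K11-linked chains on mitotic proteins, had the largest difference of the 41. Its intensity was 666, 471 and 376 in control and 190.0, 359 and 298 in cisplatin cells. The groups did not overlap, but the control values spread widely and the lowest of them lay close to the highest cisplatin value. Means were 505 ± 148 and 282 ± 85.7 (SD, n = 3 each), a log2 fold of -0.82 (SE 0.25, unadjusted p = 0.00864, adjusted p = 0.584 in limma). The highest value was on control 1, which had the lowest ACTB 3′/5′ ratio, and the lowest on cisplatin 1, which had the highest. With that ratio as a covariate the log2 fold was -0.49 (SE 0.12, adjusted p = 0.129), and without control 1 and cisplatin 2 it was -0.79 (SE 0.19, adjusted p = 0.232). Leaving out 1 array gave log2 folds of -1.01 to -0.57, and UBE2S was lower in cisplatin cells under all 19 alternative settings without passing in any.

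UBE2L6, the E2 that carries the ubiquitin-like protein ISG15 and can also carry ubiquitin, and UBE2Q1, another E2, were the remaining members without overlap between the groups. UBE2L6 had 74.4, 74.9 and 71.8 in control and 96.8, 86.7 and 93.2 in cisplatin cells. Its controls lay within a narrow band below all cisplatin values, with a log2 fold of 0.28 (SE 0.13, adjusted p = 0.977). UBE2Q1 had 288, 337 and 272 against 342, 357 and 368, with a log2 fold of 0.25 (SE 0.12, adjusted p = 0.982). Its control 2 nearly reached cisplatin 1. In all, 2 of 41 probe sets had every cisplatin value above every control value and 1 had every value below (7.32% together). Of all tested probe sets 7.42% lay above and 3.57% below, 11.0% in all.

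**Figure D3:**
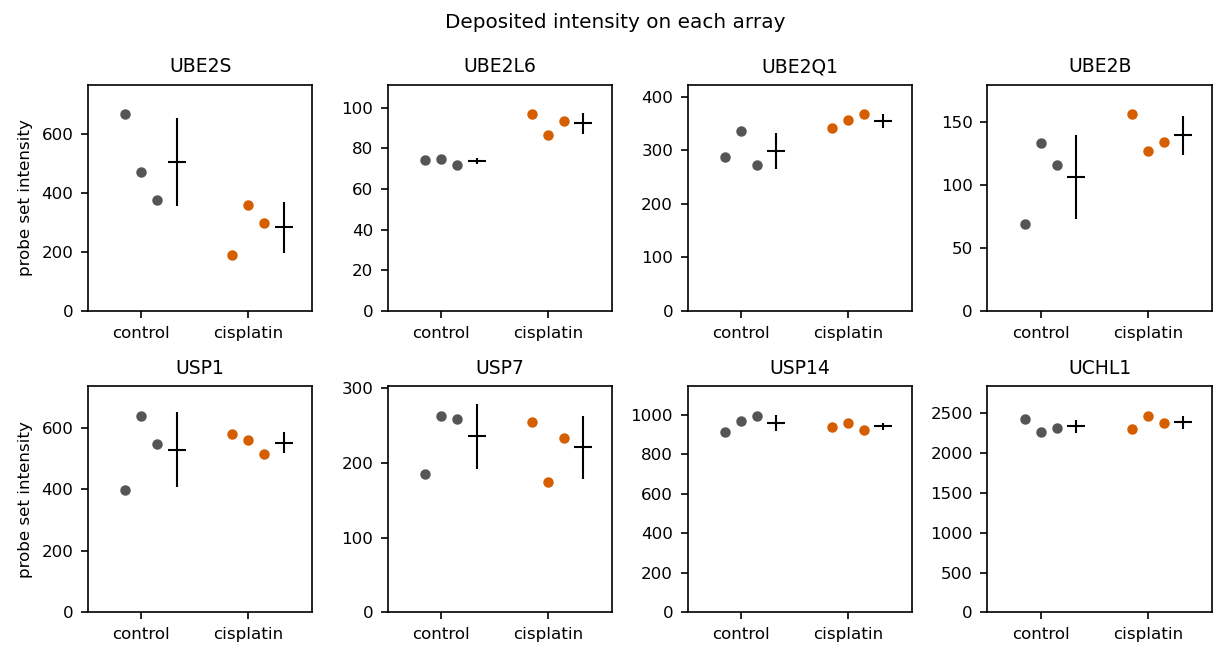
Deposited intensity (vertical axes, linear, from 0, each panel on its own scale) on the 3 control arrays (grey) and the 3 cisplatin arrays (orange) for 8 of the enzymes, arrays 1 to 3 from left to right in each group, with mean and SD in black. UBE2S, UBE2L6 and UBE2Q1 show no overlap between groups, while USP14 and UCHL1 are nearly level.

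The sequence upstream of the start site is shown for the members of this trio that had a RefSeq promoter entry, UBE2S and UBE2L6. The trio was picked only for the lack of overlap, which was no more frequent among members than over all tested probe sets. None of them passed in limma. Each run holds 250 bases that end just before the first listed start in GRCh38.p14, on the minus strand, and capitals mark matches on either strand to CCAAT, to TTTGAA, to GGGCGG and to an ISRE-like pattern, a pair of GAAA runs with a gap of 2 bases. The UBE2S run is chr19:55407789-55408038 and the UBE2L6 run is chr11:57567936-57568185.
UBE2S: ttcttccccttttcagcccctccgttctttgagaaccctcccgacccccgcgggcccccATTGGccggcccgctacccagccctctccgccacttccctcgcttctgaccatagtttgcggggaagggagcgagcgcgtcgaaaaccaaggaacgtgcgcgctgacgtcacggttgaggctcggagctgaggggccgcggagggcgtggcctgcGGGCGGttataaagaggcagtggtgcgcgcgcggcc
UBE2L6: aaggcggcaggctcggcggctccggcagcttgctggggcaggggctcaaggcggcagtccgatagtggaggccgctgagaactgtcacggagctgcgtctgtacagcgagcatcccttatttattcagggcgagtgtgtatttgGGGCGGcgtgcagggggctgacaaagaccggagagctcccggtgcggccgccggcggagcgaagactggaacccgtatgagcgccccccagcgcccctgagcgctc
UBE2S holds a CCAAT box, read from the other strand, from base -191 to -187 and a GC box from -36 to -31. UBE2L6 holds 1 GC box, from -106 to -101, and none of the other letters. No matches overlapped. Promoters were found for 35 of the 42 genes. GGGCGG was present in 27 of these (77.1%), in 3018 of 4790 promoters of genes tested on the array and in 11552 of all 27305 (42.3%). CCAAT was present in 9 of the 35 (25.7%), in 1702 of the 4790 (35.5%) and in 9021 of all. TTTGAA, the core of the CHR element of many cell cycle genes, had 0 matches in the 35 against 8.9% of the tested genes and 13.6% of all, and the ISRE-like pattern, known from interferon response elements, had 0 against 2.7% and 3.1%. A match is only a run of letters, and factor binding was not measured here.

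Among the E2s that act at damaged replication forks, UBE2A and UBE2B are the human RAD6 proteins, which attach a single ubiquitin to PCNA together with RAD18. UBE2A had 798, 877 and 832 in control and 869, 860.1 and 890.2 in cisplatin cells. The groups overlapped and the log2 fold was 0.06 (95% interval -0.13 to 0.26). UBE2B had 69.1, 133 and 116 against 156, 127 and 134. Its control 1 was far below the other 5 values, and the log2 fold of 0.39 (-0.09 to 0.87, adjusted p = 0.999) went to 0.20 without control 1 and cisplatin 2. UBE2N and UBE2V2, also known as UBC13 and MMS2, together build the K63-linked chains on PCNA. UBE2N had 222, 361 and 319 against 341, 325 and 292 (log2 fold 0.11, -0.28 to 0.50). UBE2V2 had 467, 646 and 660.0 against 652, 541 and 524 (log2 fold -0.04, -0.37 to 0.30). For both, control 1 was the lowest array and the groups overlapped.

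USP1, which removes ubiquitin from PCNA and FANCD2, had 399, 639.6 and 547 in control and 580.2, 559 and 514 in cisplatin cells. The cisplatin values lay inside the control range, with a log2 fold of 0.08 (-0.28 to 0.44). USP7, which acts on MDM2 and p53, had 185, 263 and 258 against 255, 174 and 233 (log2 fold -0.09, -0.49 to 0.32). In each group 1 array was low, control 1 and cisplatin 2. USP3, a deubiquitinase of histones H2A and H2B, had 557, 543 and 565 against 547, 501 and 531 (log2 fold -0.08, -0.29 to 0.14). USP11, which acts on BRCA2, had 180.1, 202 and 165 against 139, 200.4 and 171 (log2 fold -0.10, -0.46 to 0.25). USP2, which can stabilise MDM2, had 26.5, 12.5 and 32.6 against 29.4, 50.2 and 46.7. These values are close to the added offset and overlapped, with a log2 fold of 0.62 (SE 0.26, unadjusted p = 0.0412, adjusted p = 0.925). The 7 genes of this role had a median log2 fold of 0.04.

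The next E2s have broad or housekeeping uses. UBE2E1, which works with many RING ligases, had 984, 1099 and 1032 against 1115, 919.5 and 1079, and its means of 1039 ± 57.9 and 1038 ± 104 (SD, n = 3) all but coincided. UBE2E3, its close relative, had a log2 fold of -0.06 (-0.26 to 0.15), with 756, 842 and 777 against 731, 763 and 788. UBE2D4 had 0.15 (-0.22 to 0.52). Its cisplatin values of 102 to 149.9 overlapped the control values of 100.0 to 127. UBE2G1 and UBE2G2, E2s of the degradation of misfolded proteins at the endoplasmic reticulum, both had a log2 fold of 0.02. For UBE2G1 the interval was -0.23 to 0.26 and for UBE2G2, with controls of 75.2, 115 and 67.5, it was -0.40 to 0.44. UBE2H, the E2 of the CTLH ligase, had 81.8, 61.1 and 51.7 against 74.7, 63.1 and 83.1 and a log2 fold of 0.17, which was 0.41 without control 1 and cisplatin 2 (adjusted p = 0.607).

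UBE3A, the HECT ligase whose maternal loss causes Angelman syndrome, was read by 2 probe sets. The brighter had 437, 488 and 503 against 567, 473 and 485 (log2 fold 0.09, -0.17 to 0.35) and the dimmer 88.2, 108 and 107 against 129, 97.7 and 112 (0.14, -0.20 to 0.48). Both were lowest on control 1 and highest on cisplatin 1. UBE4A and UBE4B carry a U-box and can lengthen ubiquitin chains that other ligases have begun. UBE4A had 334, 366 and 388 against 445, 355 and 428, with a log2 fold of 0.16 (-0.11 to 0.44), and cisplatin 2 lay among the controls. UBE4B had 134, 146 and 143 against 141, 139 and 114, with a log2 fold of -0.10 (-0.40 to 0.20).

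At the proteasome, USP14 and UCHL5 trim ubiquitin from bound substrates, and USP5 takes apart unanchored chains. USP14 had 914, 968 and 996 in control and 940.1, 958 and 925 in cisplatin cells. Its log2 fold was -0.03 (-0.21 to 0.16), so a change of 1.5-fold lies outside the interval. UCHL5 had 227, 291 and 294 against 304, 252 and 269 (0.03, -0.29 to 0.34). USP5 had 125, 112 and 76.8 against 72.5, 126 and 89.0, and its spread within each group was larger than the difference (-0.12, -0.61 to 0.38).

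UCHL1, a ubiquitin hydrolase best known from neurons and present in many lung cancer lines, had 2421, 2265 and 2306 against 2295, 2467 and 2378. It had the smallest standard error of the members, with a log2 fold of 0.03 (-0.12 to 0.18). UCHL3, its paralog, had 318, 389.9 and 397 against 379.8, 324 and 345 (log2 fold -0.07, -0.35 to 0.22). OTUD7B, also known as Cezanne and selective for K11-linked chains, had 108, 81.4 and 75.9 against 84.6, 141 and 67.1 (0.08, -0.46 to 0.62). Its high arrays were control 1 and cisplatin 2.

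Of the USPs of receptors and trafficking, USP8, which acts on receptors at endosomes, had 72.9, 136 and 142 against 153, 126 and 93.2 (log2 fold 0.10, -0.46 to 0.66). USP9X, which stabilises the survival protein MCL1, had 176, 309 and 298 against 294, 199.6 and 239.8 (-0.07, -0.56 to 0.42). USP20 had 30.7, 31.4 and 31.1 in control and 27.5, 36.5 and 44.7 in cisplatin cells, with a log2 fold of 0.15 (-0.27 to 0.56). Its controls were tight and the cisplatin arrays lay on either side of them. USP22, the deubiquitinase of the SAGA coactivator, had 979, 663 and 751 against 628, 809 and 699 (-0.15, -0.49 to 0.19). USP39, a splicing factor of the USP fold that lacks deubiquitinase activity, had -0.09 (-0.37 to 0.19), and USP29 had -0.11 (-0.70 to 0.48). UBE2K, USP4, USP13, USP16, USP21 and USP25 had log2 folds of -0.05 to 0.10, and the groups overlapped for each of the 6. Of these USP4 spread most, with 231, 119.7 and 178 against 127, 217 and 221 (0.10, -0.48 to 0.67). Without control 1 and cisplatin 2, USP16 went from 0.04 to -0.18 and USP25 from 0.09 to -0.12. By family the median log2 fold was 0.04 over 14 UBE2 genes and -0.03 over 19 USP genes, and this difference was not tested.

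The members of the ISG15 cycle can be set side by side. ISG15 itself had 29.8, 34.7 and 24.9 in control and 29.0, 18.6 and 24.0 in cisplatin cells, and its E2, UBE2L6, had the values given above. USP18, which takes ISG15 off again, had 52.5, 54.2 and 60.9 against 56.9, 35.7 and 62.7. Their log2 folds were -0.22 for ISG15 (-0.66 to 0.21), 0.28 for UBE2L6 (-0.01 to 0.58) and -0.11 for USP18 (-0.55 to 0.32), so the cycle did not lie to one side. USP18 was low on cisplatin 2 alone.

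Members also differed between arrays of the same group. Control 1 was the lowest of the 6 arrays for 15 of 40 genes (37.5%), against 29.4% of all tested probe sets. The lowest ratios were those of USP8, at 0.52 of the mean of the other controls, UBE2B and USP25, each at 0.55, USP16 at 0.57 and USP9X at 0.58. These 5 were chosen after their values were seen. Cisplatin 2 was the lowest of the 6 arrays for 5 of the 40 (12.5%, against 16.7% of all tested probe sets) and the highest for 7 (17.5%, against 29.1%). Both control 1 and cisplatin 2 were the lowest array of their group for 12 of the 40 genes (30%), among them USP7, USP9X, UBE2B and UCHL5, against 23.6% of all tested probe sets. Without these arrays limma passed 0 of 41 probe sets, against 0.305% of all tested, and for 3 the unadjusted p was under 0.05, against 7.18% of all, a share close to that of the members. The median log2 fold of the 40 genes was then -0.07, with 15 higher and 25 lower, where that of all tested probe sets was 0.00. The part of RNA integrity in these array differences was not tested beyond the covariate fit, in which 0 of 41 passed and 6 had an unadjusted p under 0.05 (UBE2S, USP2, USP9X, USP4, USP7 and UBE2D4). In that fit 0.717% of all tested probe sets passed and 12.7% had an unadjusted p under 0.05, so the count of 6 is near the background.

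**Figure D4:**
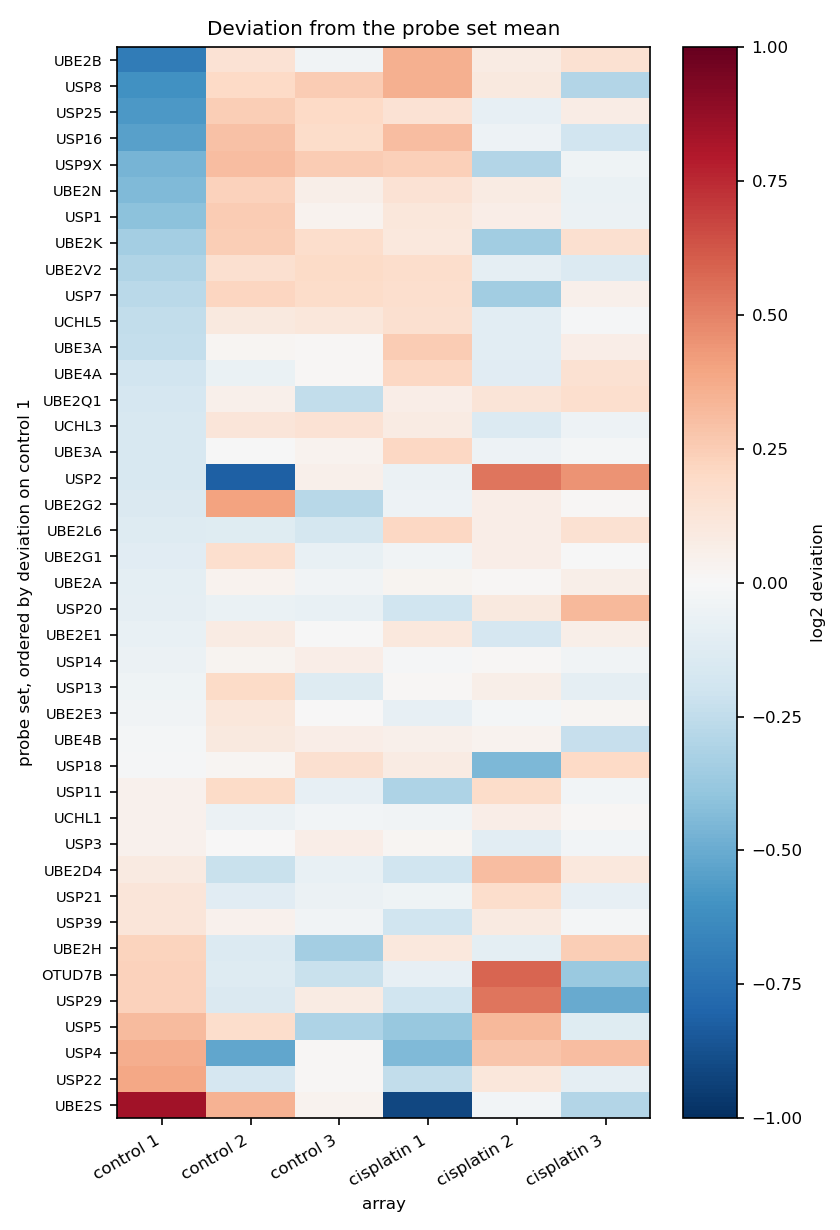
Deviation of each of the 41 tested probe sets (rows, ordered by the deviation on control 1) from its own mean over the 6 arrays (columns), in log2 units, blue for lower and red for higher. UBE2B, USP8, USP25, USP16 and USP9X are lowest on control 1, and UBE2S runs the other way, highest on control 1 and lowest on cisplatin 1.

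Gene length was compared because it was not used in the choice of members. The 40 genes had a median span of 46.4 kb in RefSeq, against 26.4 kb for the 5816 tested genes. Across the 40 genes Spearman's rho between span and log2 fold was -0.04, and -0.08 over all tested genes. Genes are not independent replicates and share the same 6 arrays, so these are descriptions. The longest members were USP9X (151 kb, log2 fold -0.07), USP25 (150 kb, 0.09), UBE4B (148 kb, -0.10), USP13 (136 kb, -0.01), OTUD7B (130 kb, 0.08) and UBE2H (122 kb, 0.17). Without control 1 and cisplatin 2 rho was -0.08 across the 40 genes and -0.13 over all tested genes. These 6 then had log2 folds of -0.19, -0.12, -0.17, -0.07, -0.05 and 0.41, in the same order.

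Other genes of the ubiquitin system came from a list of E1 enzymes, modifiers, ligases, deubiquitinases and cofactors. The array measured 53 of them and 48 were bright enough to be tested. Of the 48, 0 passed in limma, where 0.290% of all tested probe sets did, with a median log2 fold of -0.02. Just 1 partner had a p under 0.05 before adjustment, and 5.03% of the whole tested array did. That gene was SIAH2, a RING ligase of the hypoxia and stress response, with 79.6, 75.0 and 81.8 against 52.1, 64.0 and 59.0 (log2 fold -0.37, SE 0.14, adjusted p = 0.826). SIAH1, its paralog, had -0.26 and RNF4, a ligase that reads SUMO chains, -0.18. These 3 of 48 (6.25%) were the partners whose cisplatin values all lay below the controls, against 3.57% of all tested probe sets, and 0 of 48 lay above, against 7.42%. Without cisplatin 2 the log2 folds of SIAH1 and RNF4 were -0.10 and -0.05, and that of SIAH2 was -0.43. Of the E1 enzymes UBA1 had -0.19 and the NEDD8-activating subunit NAE1 0.06, and the modifiers NEDD8 and SUMO3 had 0.09 and 0.06. TSG101, an E2-like protein without E2 activity, had 0.14.

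Of the ligases of the damage response, BRCA1, its partner BARD1 and HLTF, which extends chains on PCNA, had wide intervals around small differences. Their log2 folds were 0.08 (-0.49 to 0.66), -0.03 (-0.45 to 0.38) and 0.12 (-0.41 to 0.65), in that order. Among cullin ligase genes CUL4B had -0.17, SKP2 -0.14 and KEAP1 -0.12. The segregase VCP had -0.16, and its cofactors UFD1 and UBXN1 had 0.12 and -0.11. Of further proteases, STAMBP had 0.12, TNFAIP3 0.11, BRCC3 -0.12 and SENP3 -0.09. The probe set of MDM2, the ligase that marks p53 for degradation, lay below the brightness filter. It had 9.64, 13.9 and 10.6 in control and 47.1, 34.7 and 26.3 in cisplatin cells, which was noticed after the values were seen. The groups did not overlap. With the filter lifted MDM2 had a log2 fold of 1.03 (SE 0.21, unadjusted p = 0.00103, adjusted p = 0.243 over 8746 probe sets), so it did not pass. The added 11.8 is about as large as its control signal, so this fold is smaller than the ratio of the mean intensities, 11.4 in control and 36.1 in cisplatin cells.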

How the data were processed

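Total RNA of A549 cells was hybridised as biotin-labelled target, per the labels' protocols, to 6 short-oligonucleotide arrays, 3 per group. The files hold linear intensities as deposited by the authors, and 1.37% are at or below 0. How probes were summarised and scaled is not given in the sources used here. Median intensities per array were 57.2 to 67.2, and precision is limited by having 6 arrays.

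Values were set to at least 0, 11.8 (the 10th percentile of positive values) was added, and log2 was taken without further scaling. After removal of 47 control probe sets, the 6559 probe sets at or above the 25th percentile of mean log2 were tested. Platform annotation gave 7840 of 8746 a single symbol, 388 several and 518 none, and 7838 of the single ones matched RefSeq of GRCh38.p14. The brightest probe set stood for a gene. Groups were compared by limma 3.58.1 under R 4.3.3 (lmFit, eBayes with trend, two-sided, 4 residual and 5.54 prior degrees of freedom) with Benjamini-Hochberg adjustment at 0.05 over all 6559. An exact test of 3 against 3 cannot go below 0.1. The limma step was tested on simulated data. Figures used matplotlib 3.10.9.

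The members, roles and partner list were chosen with earlier results of these data known. By a rule, 34 member genes were named, the 3 with the lowest unadjusted p in each role group and 14 always named, and 22 partners, the 3 with the lowest p per class. MDM2, OTUD4, USP9Y and the 6 members given only by their range or for the array pattern were named beside it. Alternatives covered scaling, offset, filter, variance prior, replicate block, leaving out arrays, array weights, an RNA integrity covariate and the mean of a gene's probe sets.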

Additional observations from a re-analysis of the deposited data

How the results depend on the processing

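In limma 0 member probe sets, 0 named members and 0 partners passed under each of the alternatives run for them, and the lowest adjusted p of a member was 0.129 (UBE2S, integrity covariate). The count of members with an unadjusted p under 0.05 ran from 1 to 6, and the share of all tested probe sets from 2.93% to 12.7%. Of 1169 log2 folds of the members and the named partners under alternatives, 1055 kept their direction and 114 did not. The median log2 fold of the member genes, 0.02, was -0.05 with array weights and -0.07 without control 1 and cisplatin 2, and -0.05 to 0.06 with 1 array left out. The cause was not tested. Under the replicate block 0 members passed and 1 had an unadjusted p under 0.05. The labels do not say whether arrays of equal number share an experiment. Their deviations from each group's own mean correlated at -0.56, -0.31 and -0.12. All were below 0, but they rest on only 6 arrays and cannot settle the question. Log2 folds of the block fit equalled the main ones (UBE2S -0.82, USP2 0.62), and only the errors and p differed.

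Log2 folds that turned were, with the integrity covariate, BRCA1 -0.26, HLTF -0.11, NAE1 -0.18, UBE2G1 -0.01, UBE2G2 -0.01, UBE2N -0.06, UBE3A 0.00, UBXN1 0.01, UCHL5 -0.11, USP1 -0.07, USP16 -0.23, USP22 0.03, USP25 -0.15, USP29 0.06, USP5 0.10 and USP8 -0.17. With array weights they were BRCA1 -0.05, HLTF -0.17, KEAP1 0.03, NAE1 -0.04, OTUD7B -0.12, SENP3 0.00, UBE2E1 0.02, UBE2G1 -0.03, UBE2G2 -0.05, UBE2N -0.06, UCHL5 -0.03, USP1 -0.07, USP16 -0.18, USP18 0.04, USP25 -0.02 and USP8 -0.20. Without control 1 and cisplatin 2 they were BRCA1 -0.07, HLTF -0.22, KEAP1 0.05, NAE1 -0.01, OTUD7B -0.05, UBE2E1 0.04, UBE2G1 -0.07, UBE2G2 -0.08, UBE2N -0.10, UCHL5 -0.03, USP1 -0.11, USP16 -0.18, USP18 0.05, USP25 -0.12 and USP8 -0.20. Centring on the median gave UBE2G1 -0.04, UBE2G2 -0.04, UCHL1 -0.03, UCHL5 -0.03, USP16 -0.02 and USP21 -0.02, and quantile normalization gave UBE2E1 0.01, UBE2G2 -0.05, UCHL1 0.00, UCHL5 -0.02, USP14 0.00 and USP21 -0.04. With 1 array left out the ranges were BARD1 -0.20 to 0.10, BRCA1 -0.22 to 0.28, BRCC3 -0.32 to 0.00, HLTF -0.16 to 0.31, KEAP1 -0.24 to 0.04, NAE1 -0.13 to 0.18, OTUD7B -0.19 to 0.29, TSG101 -0.01 to 0.30, UBE2E1 -0.06 to 0.08, UBE2G1 -0.04 to 0.11, UBE2G2 -0.12 to 0.22, UBE2K -0.23 to 0.11, UBE2N -0.09 to 0.25, UBE2V2 -0.19 to 0.05, UCHL5 -0.09 to 0.09, USP1 -0.10 to 0.23, USP11 -0.22 to 0.03, USP13 -0.08 to 0.08, USP14 -0.06 to 0.00, USP16 -0.22 to 0.20, USP18 -0.24 to 0.08, USP21 -0.05 to 0.10, USP22 -0.27 to 0.00, USP25 -0.18 to 0.23, USP29 -0.41 to 0.11, USP4 -0.14 to 0.34, USP5 -0.31 to 0.04, USP7 -0.25 to 0.06, USP8 -0.18 to 0.27 and USP9X -0.32 to 0.07. Signal near background limits USP2, whose log2 fold was 0.32 to 0.89 over 18 alternatives, and OTUD4 and MDM2, which the filter removed.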
